A study of Mus musculus with 8 samples.

Results

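The 39 mouse Hox genes of the Hoxa, Hoxb, Hoxc and Hoxd clusters were examined in epithelial cells of the cecum and colon. Members were all gene names made of Hoxa, Hoxb, Hoxc or Hoxd followed only by digits, which selected 39 of the 33696 genes in the deposited gene table, without use of any measured value. The Hoxa cluster has 11 of these genes, the Hoxb cluster 10, and the Hoxc and Hoxd clusters 9 each.

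Single-cell RNA sequencing was run on Mus musculus colon and cecum from control mice (Ctrl), antibiotic-treated mice (Abx_4D and Abx_14D in the deposited cell table) and germ-free mice (GF), which carry no microbes. Epithelium was released with EDTA, dissociated with Dispase II and DNase I, and pooled within each condition. Cells positive for the epithelial antigen EPCAM and negative for the leukocyte antigen CD45 were then sorted as equal parts of CD44-positive (proliferative) and CD44-negative (differentiated) cells, so the sort set the ratio of these 2 fractions. Strain, age, sex, the antibiotics and the meaning of 4D and 14D were not given in the sources used here. All 8 sequencing sublibraries carried all conditions, and the deposited cell table assigned each cell to 1 of 32 loaded samples, 4 for each tissue and condition. Since the cells were pooled by condition, no label says that the 4 loaded samples of a group came from separate animals. The p-values therefore measure the spread among loaded samples alone, and that spread may be technical. Comparisons used 24 loaded samples with 14840 cells: the 4 cecal groups (Ctrl 1330 cells, Abx_4D 1511, Abx_14D 2296, GF 1636) and colon Abx_14D (3852 cells) and GF (4215 cells). Colon Ctrl held 50 cells, and colon Abx_4D took 857 of its 1026 cells from 1 loaded sample, so both were left out. Each sample used held 1821737 to 30127065 transcripts, and levels are given as CPM, a gene's count scaled to the sample's total. Epithelial marker genes summed to 2980 to 5520 CPM per sample, against 1.34 to 12.5 CPM for stromal and vessel markers (2 to 5 of the 10 at 0 in each group), 0.549 to 31.9 CPM for immune markers and 0.87 to 7.4 CPM for nerve and glia markers.

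Hox genes encode homeodomain transcription factors that give cells along the head-to-tail axis of the embryo their positional identity. Within a cluster they lie in the order of their paralog numbers, and genes with higher numbers are switched on later and nearer the tail, a rule called collinearity. In the gut, genes of the highest paralog group mark the hindgut, Cdx homeodomain factors act upstream, and Polycomb and Trithorax proteins keep clusters silent or active through cell division.

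Promoters are shown for 4 members whose pattern the results turn on: Hoxa13, Hoxd13 and Hoxd10, which were higher in colon, and Hoxb8, which was low in colon cells that carried a Hoxb13 transcript. Each is the 250 bases before the RefSeq start site, written 5′ to 3′ on the gene's strand in build GRCm38.p6: chr6:52260881-52261130 (minus strand) for Hoxa13, chr2:74667975-74668224 (plus) for Hoxd13, chr2:74691641-74691890 (plus) for Hoxd10 and chr11:96281655-96281904 (plus) for Hoxb8. Capitals mark matches, on either strand, to the CCAAT box, to the TATA element TATAAA and to CAATAAA, an element that Cdx factors can bind. In Hoxd13 the TATAAA match and its reverse complement overlap.
Hoxa13: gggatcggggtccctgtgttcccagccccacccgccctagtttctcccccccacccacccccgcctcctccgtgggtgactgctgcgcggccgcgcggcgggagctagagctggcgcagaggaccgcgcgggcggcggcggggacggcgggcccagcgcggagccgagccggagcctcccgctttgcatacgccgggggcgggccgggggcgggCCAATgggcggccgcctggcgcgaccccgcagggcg
Hoxd13: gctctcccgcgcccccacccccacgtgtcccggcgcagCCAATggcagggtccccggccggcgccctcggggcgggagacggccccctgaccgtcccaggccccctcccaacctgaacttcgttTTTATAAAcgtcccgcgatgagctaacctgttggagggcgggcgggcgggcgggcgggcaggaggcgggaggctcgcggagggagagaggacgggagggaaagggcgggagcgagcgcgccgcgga
Hoxd10: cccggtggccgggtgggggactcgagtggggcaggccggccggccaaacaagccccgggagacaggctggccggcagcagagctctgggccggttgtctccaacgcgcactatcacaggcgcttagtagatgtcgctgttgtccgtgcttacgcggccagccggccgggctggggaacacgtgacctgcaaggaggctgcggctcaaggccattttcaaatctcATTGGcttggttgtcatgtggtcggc
Hoxb8: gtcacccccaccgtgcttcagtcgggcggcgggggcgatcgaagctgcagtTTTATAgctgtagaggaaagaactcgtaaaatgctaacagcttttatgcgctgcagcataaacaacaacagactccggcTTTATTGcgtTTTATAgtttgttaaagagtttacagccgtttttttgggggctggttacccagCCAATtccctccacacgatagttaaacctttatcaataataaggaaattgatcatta
The RefSeq table held 24 promoters for 22 of the 39 Hox genes, and none of them was for Hoxb13. CCAAT occurred in 14 of the 24 Hox promoters and in 33.8% of all 32851 promoters in the table, TATAAA in 4 of 24 and 12.4%, and CAATAAA in 1 of 24, that of Hoxb8, and 4.2%. The Hoxa13, Hoxd13, Hoxd10 and Hoxb8 windows held 35, 31, 20 and 12 CG dinucleotides, against a median of 12.5 over the Hox promoters and 6 over all. A motif match describes letters only, and binding was not measured.

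Hoxa, Hoxb and Hoxd genes were expressed in this adult epithelium and Hoxc genes were near 0. All Hox genes together made up 897 CPM of the cecal transcripts (107271 counts) and 868 CPM of the colonic ones (113665 counts). In this paragraph cecal values pool all 4 cecal groups and colonic values only Abx_14D and GF, so the sets of conditions differ. Of the 39 genes, 25 had at least 100 counts over the 24 samples: 10 of 11 in Hoxa, 9 of 10 in Hoxb, 6 of 9 in Hoxd and 0 of 9 in Hoxc. The Hoxb genes summed to 573 CPM in cecum and 499 CPM in colon, the Hoxa genes to 286 and 298 CPM, and the Hoxd genes to 37.6 and 70.9 CPM. These sums are shares of transcripts and are not corrected for gene length. The whole Hoxc cluster had 34 counts in cecum and 9 in colon, and Hoxc10 and Hoxc11 had none. At the other end of the paralog order, Hoxb1 and Hoxd1 had 4 and 7 counts over all 24 samples. The genes with the most counts were Hoxb6 (69955), Hoxa3 (33605) and Hoxb9 (21050).

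The colon was compared with the cecum in Abx_14D and, separately, in GF to ask which Hox genes differ between the 2 gut regions. The 5′ ends of the Hoxa, Hoxb and Hoxd clusters were far higher in colon in both conditions, most of the middle of the clusters differed little, and the 3′ Hoxb genes Hoxb2, Hoxb3 and Hoxb4 were lower in colon. Counts were summed per loaded sample and tested with edgeR's quasi-likelihood test, with Benjamini-Hochberg adjustment over all genes tested and a threshold of 0.05; log2 differences are given ± SE. Of the 24 Hox genes that passed the low-count filter, 9 passed the test in Abx_14D (6 higher and 3 lower in colon) and 12 in GF (6 higher and 6 lower). Hoxb13, Hoxd10, Hoxd11 and Hoxd13 (54, 2, 8 and 13 counts in all cecal samples) did not pass that filter in the cecal samples alone, so they were tested only through the colonic samples where they are high, and they make up 4 of the 6 higher calls in each condition. The background was 35% of 13945 genes in Abx_14D (18.5% higher, 16.5% lower) and 23.6% in GF (14.3% higher, 9.28% lower). The median log2 difference over the 24 Hox genes was 0.07 and -0.04, against 0.02 and 0.06 over all genes tested. These counts and medians describe the 24 genes tested, not all 39. Cell makeup moved with the tissue: absorptive-gated cells were 21.6% of cecal and 3.55% of colonic cells, and stem-gated cells 21.7% and 40%. These cecal shares pool all 4 cecal groups, and the colonic ones only Abx_14D and GF. In summed samples, fewer cells of a type and less RNA per cell cannot be told apart, so the comparison was repeated within gated cells.

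Hoxb13, the 5′-most Hoxb gene and a known marker of the distal colon, had the widest contrast among Hox genes with more than 3 counts in each group. In the 4 cecal Abx_14D samples it was at 0.121, 0.124, 0.454 and 0.359 CPM, and in the 4 colonic ones at 29.4, 48.1, 49.4 and 54.8 CPM. In GF the cecal samples gave 0.448, 0.132, 0.565 and 0.43 CPM and the colonic ones 29.7, 31.3, 41.5 and 38.6 CPM. No colonic sample overlapped a cecal one. The log2 difference was 7.21 ± 0.32 in Abx_14D (edgeR adjusted p = 7.28e-11) and 6.36 ± 0.31 in GF (edgeR adjusted p = 2.4e-10).

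Hoxd13, the 5′-most gene of its cluster, was at 0, 0.124, 0.26 and 0.12 CPM in cecal Abx_14D and at 11.7, 19.1, 19.4 and 12.2 CPM in colonic Abx_14D. Its colonic GF samples were at 14.9, 14.3, 23.2 and 20.4 CPM, with 0, 0.264, 0.0706 and 0 CPM in cecal GF. It was thus almost unread in cecum and present in every colonic sample. The difference in Abx_14D was 6.62 ± 0.43 (edgeR adjusted p = 4.77e-09); in GF, with 3 cecal counts, the ratio of the pooled levels was 197 (exact 95% interval 67.3 to 957, counting error only; edgeR adjusted p = 3.66e-09). Hoxa13, its paralog, was not silent in cecum: cecal Abx_14D samples were at 1.7, 1.36, 2.01 and 2.27 CPM and colonic ones at 10.4, 13.5, 15.7 and 15.3 CPM. In GF the cecal values were 0.448, 1.06, 0.494 and 2.72 CPM and the colonic values 13.6, 8.91, 12.7 and 14.4 CPM, again without overlap. Hoxa13 was higher in colon by 2.87 ± 0.34 on the log2 scale in Abx_14D (edgeR adjusted p = 6.09e-06) and by 3.47 ± 0.37 in GF (edgeR adjusted p = 2.34e-06).

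**Figure D1:**
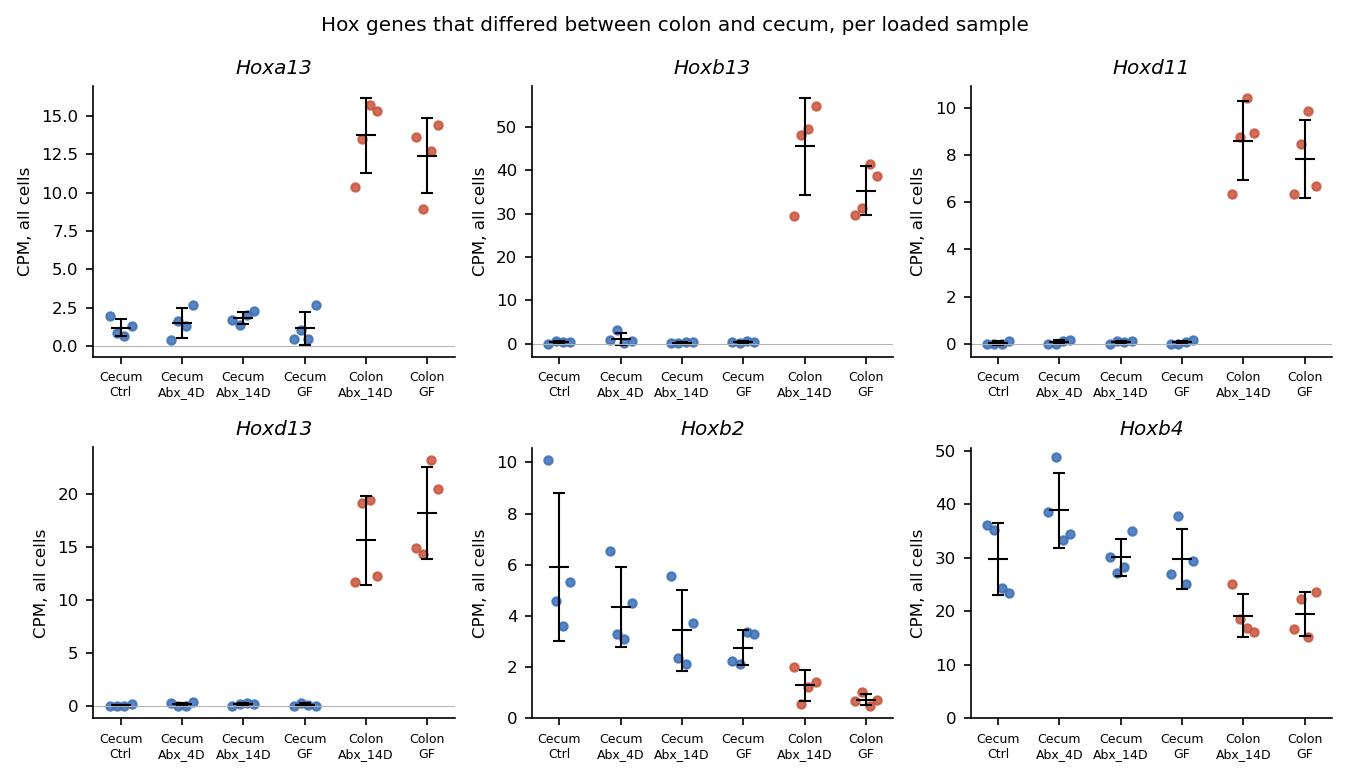
Level in CPM (y axis) of Hoxa13, Hoxb13, Hoxd11, Hoxd13, Hoxb2 and Hoxb4 in each loaded sample (points) of the 4 cecal and 2 colonic groups, with bars for the mean and SD of 4 samples. Hoxa13, Hoxb13, Hoxd11 and Hoxd13 separate the tissues with no overlap, and Hoxb2 and Hoxb4 are lower in colon, where Hoxb4 averages 19.2 and 19.4 CPM against 30.1 and 29.8 CPM in the matching cecal groups.

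The rest of the 5′ Hoxd genes followed the same split. Hoxd11 was at 6.34, 8.77, 10.4 and 8.93 CPM in colonic Abx_14D and at 0, 0.124, 0.0649 and 0.12 CPM in cecal Abx_14D, where 3 counts were read in all. The ratio of pooled levels, colon over cecum, was 103 (exact 95% interval 35 to 501; edgeR adjusted p = 3.89e-09) in Abx_14D and 137 (37.7 to 1.13e+03; edgeR adjusted p = 6.6e-09) in GF. Hoxd10 had 121 counts in colonic Abx_14D and 0 in cecal Abx_14D, which makes it at least 28.4-fold higher (floor of 3 counts over the group; edgeR adjusted p = 9.41e-06). In GF the Hoxd10 ratio was 63.1 (11.1 to 2.51e+03; edgeR adjusted p = 6.55e-05), on 132 and 1 counts. Hoxd9 and Hoxd12 did not pass the low-count filter. Over both conditions Hoxd9 had 48 counts in colon and 0 in cecum (at least 9.23-fold higher), and Hoxd12 had 82 and 1 (ratio 47.3, exact 95% interval 8.25 to 1.89e+03). Hoxd10 and Hoxd11 are neighbours on the same strand. The annotation of the counting was not given in the sources used here, so whether they share reads cannot be told.

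Downstream of these, toward the 3′ end, Hoxd3 and Hoxd4 did not pass the test in either condition (Hoxd3 0.41 ± 0.25 in Abx_14D and -0.10 ± 0.24 in GF; Hoxd4 0.30 ± 0.29 and 0.03 ± 0.28). In Hoxa and Hoxb the genes of paralog groups 5 to 10 likewise moved by less than 1 log2 unit in both conditions. Hoxb9 was among the closest to even, at 98.9, 78, 86.3 and 98.6 CPM in cecal Abx_14D and at 99.7, 86.7, 75 and 85.9 CPM in colonic Abx_14D, a difference of -0.06 ± 0.11, and -0.01 ± 0.11 in GF. Hoxa10 differed by 0.02 ± 0.12 and 0.17 ± 0.12. In GF, 3 genes of the middle passed: Hoxa7 (-0.45 ± 0.13, edgeR adjusted p = 0.0166), Hoxa9 (-0.55 ± 0.14, edgeR adjusted p = 0.0103) and Hoxb6 (-0.51 ± 0.15, edgeR adjusted p = 0.021). Colonic GF Hoxa9 was at 32.7, 32.8, 39.6 and 37.5 CPM against 51.9, 55.5, 44 and 56.8 CPM in cecum, without overlap. Colonic GF Hoxb6 was at 221, 224, 197 and 256 CPM against 339, 345, 332 and 260 CPM, also without overlap. In Abx_14D Hoxb6 overlapped between tissues (216 to 324 against 235 to 368 CPM) and differed by -0.20 ± 0.15. The GF call of Hoxa7 was lost without cecal GF sample 4 (-0.36) or colonic GF sample 2 (-0.40) or 3 (-0.41), and that of Hoxb6 without cecal GF sample 2 (-0.47) or 3 (-0.49) or colonic GF sample 1 (-0.50) or 3 (-0.45).

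Hoxb2, Hoxb3 and Hoxb4, 3′ genes known for a part in hindbrain patterning, fell from cecum to colon in both conditions. Hoxb2 was at 5.57, 2.35, 2.14 and 3.71 CPM in cecal Abx_14D and at 2.02, 0.548, 1.21 and 1.42 CPM in colonic Abx_14D, and at 2.24, 2.12, 3.39 and 3.3 CPM against 0.675, 1.01, 0.494 and 0.702 CPM in GF. The groups did not overlap in either condition, and the difference was -1.31 ± 0.38 in Abx_14D (edgeR adjusted p = 0.0121) and -1.90 ± 0.40 in GF (edgeR adjusted p = 0.00197). Hoxb4 was at 30.1, 27.1, 28.3 and 34.9 CPM in cecal Abx_14D and 25, 18.6, 16.8 and 16.2 CPM in colonic Abx_14D, with differences of -0.64 ± 0.18 (edgeR adjusted p = 0.01) and, in GF, -0.61 ± 0.18 (edgeR adjusted p = 0.0179). Hoxb3 differed by -0.59 ± 0.19 (edgeR adjusted p = 0.0215) and -0.65 ± 0.19 (edgeR adjusted p = 0.0169), and its Abx_14D samples overlapped (54.2 to 95.2 CPM in cecum, 33.9 to 57.4 CPM in colon). The Abx_14D calls were lost for Hoxb2 without cecal Abx_14D sample 1 (-0.98), and for Hoxb3 without cecal sample 2 (-0.38) or colonic sample 3 (-0.48) or 4 (-0.56). The GF calls were lost for Hoxb3 without colonic GF sample 3 (-0.56), and for Hoxb4 without cecal GF sample 2 (-0.48) or colonic GF sample 1 (-0.55) or 3 (-0.52). Hoxb4 in Abx_14D was also lost without the samples whose median mitochondrial share exceeded 0.5% (-0.56, edgeR adjusted p = 0.0866).

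In Hoxa, 2 genes passed in 1 condition each. Hoxa3 was higher in colonic Abx_14D by 0.36 ± 0.12 (edgeR adjusted p = 0.0282), with colonic samples at 147, 138, 149 and 133 CPM and cecal ones at 120, 116, 106 and 99.3 CPM, and the call was lost without cecal sample 3 (0.34) or 4 (0.31) or colonic sample 1 (0.34) or 3 (0.34). Hoxa11 was higher in colonic GF by 2.27 ± 0.34 (edgeR adjusted p = 0.000112), where colonic samples were at 2.78, 2.55, 2.47 and 1.64 CPM and cecal ones at 0.149, 0.397, 0.706 and 0.574 CPM. In Abx_14D the Hoxa11 difference was 0.74 ± 0.29 (edgeR adjusted p = 0.0575). Whether the tissue difference itself differed between GF and Abx_14D was tested with an interaction term, and 0 of 24 Hox genes passed, against a background of 0% of 13945 genes. Hoxa11 had the only unadjusted p under 0.05 (interaction 1.52 ± 0.46, edgeR adjusted p = 0.62), and DESeq2 called 0 as well. Hoxa11 overlaps the antisense RNA Hoxa11os, so the 2 cannot be told apart if counting ignored the strand.

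**Figure D2:**
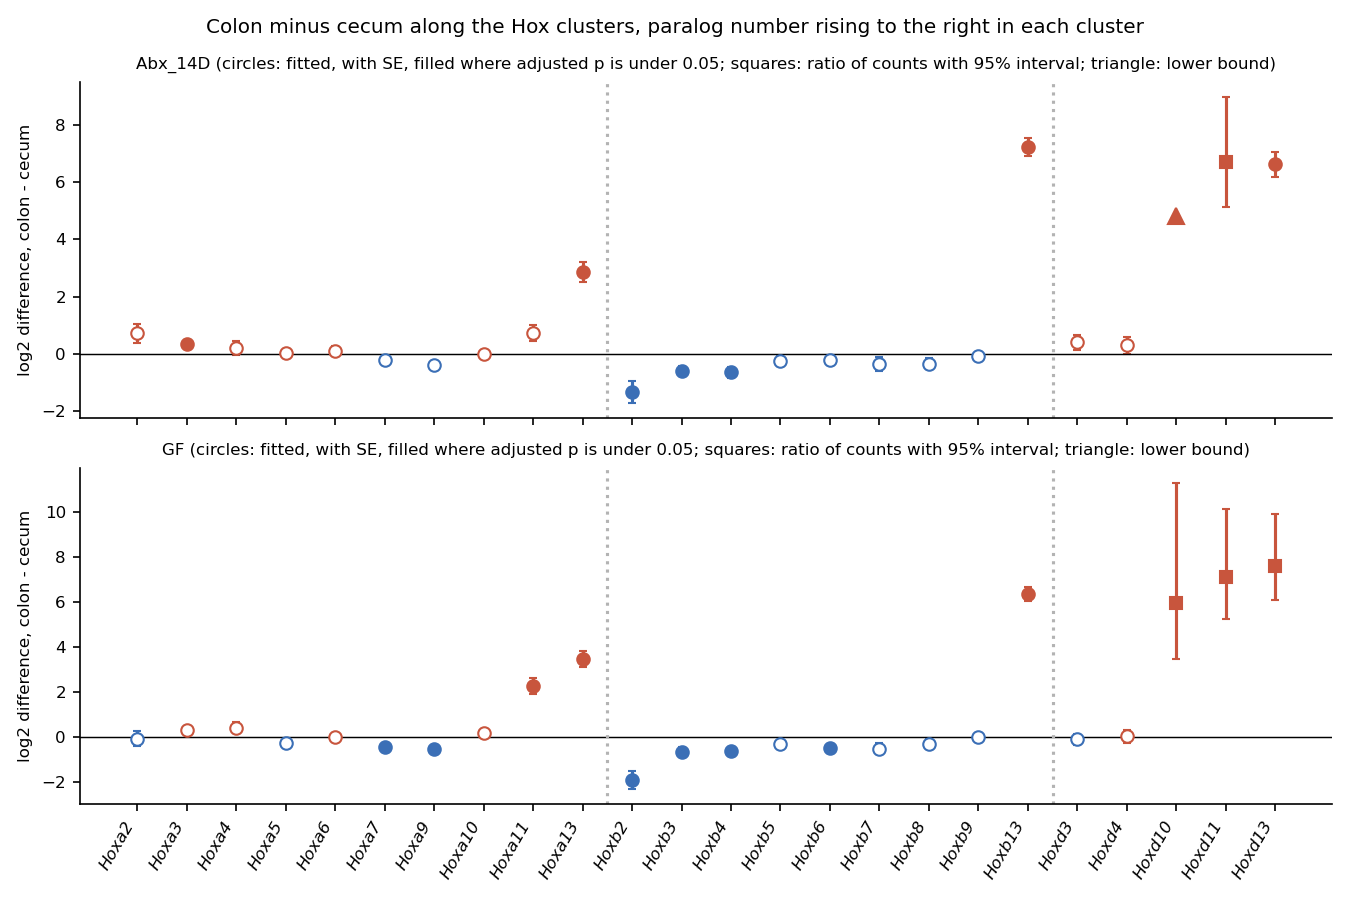
Log2 difference, colon minus cecum, with SE (y axis) for the 24 Hox genes tested, in order along the Hoxa, Hoxb and Hoxd clusters (x axis), for Abx_14D (top) and GF (bottom). Squares give the ratio of pooled counts with its exact 95% interval and triangles a lower bound, for genes with at most 3 cecal counts; Hoxb13 stands at 7.21 and 6.36, while Hoxb9 stands at -0.06 and -0.01.

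Noncoding RNAs inside the clusters were split between tissues in the same places. Of the 15 names listed, 10 were in the gene table and 8 were tested, and 5 of 8 passed in each condition (4 higher, 1 lower). Over all genes 35% and 23.6% passed. The list's median log2 difference was 0.61 in Abx_14D and 0.40 in GF, against 0.02 and 0.06 over all genes. Hottip, a long noncoding RNA transcribed from the 5′ end of Hoxa next to Hoxa13, was at 8.13, 11.8, 10.1 and 10.7 CPM in colonic Abx_14D and at 0.121, 0.372, 0.0649 and 0.359 CPM in cecal Abx_14D. Its log2 difference was 5.57 ± 0.37 (edgeR adjusted p = 8.09e-09) and 6.07 ± 0.42 in GF (edgeR adjusted p = 1.29e-08). Hottip, near 0 in cecum, was tested only through the colonic samples where it is high, so the filter favored its calls. Hoxa11os was at 50.7, 78.4, 98.1 and 68.4 CPM in colonic Abx_14D against 7.39, 3.59, 4.22 and 6.45 CPM in cecum, and differed by 3.78 ± 0.23 (edgeR adjusted p = 3.34e-09) and by 4.04 ± 0.24 in GF (edgeR adjusted p = 2.74e-09). Hottip and Hoxa11os were thus both without overlap between the tissues in Abx_14D. Hoxb3os, antisense to Hoxb3 and Hoxb2, was lower in colon by the same test (-1.28 ± 0.26 and -1.90 ± 0.27), the direction of Hoxb2 and Hoxb3, whose reads it may share.

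The genes that flank the clusters gave a further reading of position. Of the 9 tested, 5 passed in Abx_14D (3 higher, 2 lower) and 4 in GF (all higher), beside the 35% and 23.6% of all genes. Ttll6, a tubulin-modifying enzyme gene beside the Hoxb13 end, was at 58.1, 83.3, 73.3 and 73.6 CPM in colonic Abx_14D and at 5.33, 8.55, 7.79 and 8.25 CPM in cecal Abx_14D. The groups stood far apart, and the difference was 3.26 ± 0.16 (edgeR adjusted p = 2.45e-10) and 2.69 ± 0.16 in GF (edgeR adjusted p = 2.71e-09). Evx2, the homeobox gene next to Hoxd13, was at 1.16, 1.28, 1.21 and 1.2 CPM in colonic Abx_14D and at 0 in all 8 cecal samples of the 2 conditions. It was at least 16-fold higher in colon in Abx_14D (edgeR adjusted p = 0.000128) and at least 13.4-fold in GF (edgeR adjusted p = 0.000275). Evx2 passed the low-count filter only through the colonic samples, so the filter favored its calls, which are among the higher calls counted above.

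Genes known to act on the clusters were read from lists of their own. Cdx2, a caudal homeodomain factor that sets intestinal identity, was 1 of 2 caudal genes tested to pass, at 218, 176, 162 and 154 CPM in cecal Abx_14D and 124, 104, 89.8 and 126 CPM in colonic Abx_14D. Cdx2 was lower in colon by 0.67 on the log2 scale (-0.67 ± 0.15, edgeR adjusted p = 0.00209) and in GF as well (-0.55 ± 0.15, edgeR adjusted p = 0.0126). Of the TALE cofactors, homeodomain partners that bind DNA with Hox proteins, 1 of 6 passed in Abx_14D (Pbx3, -0.59 ± 0.20, edgeR adjusted p = 0.0281) and 0 of 6 in GF, beside 35% of all genes in Abx_14D and 23.6% in GF. The Pbx3 call was lost without cecal Abx_14D sample 2 (-0.55) or 3 (-0.55) or colonic Abx_14D sample 2 (-0.50) or 4 (-0.46) and without the samples over 0.5% mitochondrial share (-0.58), and the GF call of Cdx2 without colonic GF sample 3 (-0.44). Of 18 Polycomb genes, 8 passed in Abx_14D (4 higher, 4 lower) and 5 in GF (3 higher, 2 lower), shares of the order of the background. Ezh1 (0.50 and 0.39) and Pcgf2 (0.46 and 0.51) were higher in colon in both conditions, and Bmi1 (-0.69 and -0.55) and Phc1 (-0.62 and -0.57) lower. Of 12 Trithorax genes and demethylases, 2 passed in each condition, beside the same 35% and 23.6% of all genes, with Dpy30 lower in both (-0.75 and -0.53). From a list of 8 hindgut ligands and receptors upstream, only Rarb, a retinoic acid receptor gene, is given. How many others were tested or passed is not reported here. Rarb was lower in colon by -2.46 ± 0.36 and -2.04 ± 0.35, where 35% and 23.6% of all genes passed. It was at 7.99, 7.56, 10.1 and 8.96 CPM in cecal Abx_14D and 2.16, 1.37, 1.21 and 1.2 CPM in colon.

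Cells were next gated on marker scores, with no Hox gene among the markers. The gates are ranges on a score, not types: stem-gated cells numbered 1469 in cecum and 3223 in colon, and 717 and 1264 cells of those tissues lay within 0.2 of the lower limit of the stem score. The median stem score was 1.9 in cecal and 2.01 in colonic stem-gated cells, with medians of at most 0.34 for the absorptive, goblet and proliferation scores, while colonic cycling-gated cells had a median stem score of 1.49, above the lower limit of 1.4. Within stem-gated cells, 10 of 20 Hox genes passed between colon and cecum in each condition, 4 higher and 6 lower. The background was 20.5% in Abx_14D (8.09% higher, 12.4% lower) and 12.1% in GF (6.59% higher, 5.47% lower). The Hox medians were -0.39 and -0.38, against -0.09 and -0.03 over all genes tested. Hoxa13, Hoxb13, Hoxd11 and Hoxd13 were higher in colon in both conditions. In cecal stem-gated cells Hoxa13 and Hoxb13 had 27 and 13 counts over 16 samples. All cecal cells held 8 and 13 counts of Hoxd11 and Hoxd13. These 4 genes were thus tested only through the colonic samples where they are high, and the filter favored their calls. The counts and medians describe the 20 genes tested. Hoxa7 (-0.77 in both), Hoxa9 (-0.58 and -0.74), Hoxb3 (-0.88 and -0.84) and Hoxb6 (-0.45 and -0.56) were lower in both. Hoxb4 (-1.01) and Hoxb8 (-0.86) passed only the Abx_14D test, and Hoxa5 (-0.71) and Hoxb2 (-2.41) only the GF test; whether these differed between conditions was not tested within stem-gated cells. The call was lost for Hoxa9 in Abx_14D without cecal sample 4 (-0.50) or colonic sample 1 (-0.45), and for Hoxa5 in GF without cecal sample 2 (-0.56) or colonic sample 1 (-0.69) or 2 (-0.63). Without the samples over 0.5% mitochondrial share the Abx_14D calls of Hoxa9 (-0.37), Hoxb4 (-0.59) and Hoxb8 (-0.59) were lost.

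The tissues were compared within 3 other gates, and the calls were not tested for differences between gates. In goblet-gated cells, which make mucus (482 cecal and 776 colonic cells), 11 of 19 Hox genes passed in Abx_14D (4 higher, 7 lower) and 7 of 19 in GF (4 higher, 3 lower). The background was 12.4% (5.46% higher, 6.94% lower) and 14.2% (6.48% higher, 7.75% lower). Hoxb6 (-1.42 and -1.28), Hoxb3 (-1.54 and -0.95) and Hoxb4 (-1.83 and -1.21) were lower in colon in both, and Hoxb5 (-1.54), Hoxb7 (-1.51), Hoxb8 (-1.54) and Hoxb9 (-0.81) passed in Abx_14D. In cycling-gated cells 3 of 18 passed in each condition (Hoxa13, Hoxb13 and Hoxd13, all higher; background 12.3% and 7.87%, and 6.46% and 4.67% for higher alone). In absorptive-gated cells 3 of 12 passed in each (all higher; background 19.1% and 13.2%, and 13.2% and 9.79% for higher alone): Hoxa13 (2.54 ± 0.48 and 2.58 ± 0.54) and Hoxb13 in both, Hoxa3 (0.88) in Abx_14D and Hoxb9 (0.76) in GF. The fits of the 4 cecal groups tested 15 Hox genes in goblet-gated and 15 in cycling-gated cells, against 19 and 18 here. Genes near 0 in cecum, such as Hoxa13 (6 and 15 counts in those cecal cells), were tested only through the colonic samples. Hoxb13, with 54 counts in all cecal cells, entered the cycling-gated and absorptive-gated fits in the same way. The filter thus favored higher calls. The Hoxa3 call was lost under TMM scaling (0.74, edgeR adjusted p = 0.091). It was also lost without cecal Abx_14D sample 1, 2 or 3, colonic Abx_14D sample 2, 3 or 4 or colonic GF sample 1 or 2 (0.68 to 0.91), and that of Hoxb9 without cecal GF sample 1 or 2 or colonic GF sample 1, 3 or 4 (0.62 to 0.81).

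Hox levels also differed between cell classes within a tissue. With library-size scaling most Hox genes tested were higher in stem-gated than in absorptive-gated cells, while Hoxa13 and Hoxb13 in colon ran the other way. Class differences were tested with the loaded sample as a block, and in cecum 15 of 15 Hox genes differed between classes (background 94.4%) and in colon 18 of 19 (background 90.1%). Library-size scaling moved the median of all genes by up to 0.56 log2 units against absorptive-gated cells compared with TMM scaling, so the differences are given beside that median. In cecum all 15 were higher in stem-gated than in absorptive-gated cells (62% of all genes were), with a Hox median of 1.56 against 0.61 over all genes, and of 1.00 against 0.04 under TMM, where 14 passed and Hoxb5 did not (0.18). In colon 13 were higher and 2 lower (48% and 26.2% of all genes), with a median of 0.72 against 0.34. Under TMM these counts were 9 and 2 of 19, and the median 0.42 against 0.05. The shares of all genes called under TMM are not given here, so the TMM counts have no background.

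Hoxd3, Hoxd4 and Hoxb8 had the 3 largest stem minus absorptive differences among the Hox genes tested in each tissue. Cecal Hoxd3 was at 41.4 ± 8.74 CPM in stem-gated cells (SD, n = 16), 29.1 ± 8.87 in cycling-gated (n = 16), 35.5 ± 10.5 in goblet-gated (n = 12) and 2.98 ± 2.73 in absorptive-gated cells (n = 14). Colonic Hoxd3 followed the same order at its ends, from 41.4 ± 11.5 CPM in stem-gated to 4.6 ± 2.81 CPM in absorptive-gated cells (n = 8 each). The stem minus absorptive difference was 3.47 ± 0.19 in cecum (edgeR adjusted p = 2.79e-22) and 3.30 ± 0.29 in colon (edgeR adjusted p = 1.19e-12). Hoxb8 went from 58.9 ± 10.9 to 5.13 ± 3.3 CPM in cecum (3.40 ± 0.16) and from 35.3 ± 6.87 to 8.24 ± 3 CPM in colon (2.04 ± 0.23). Hoxa3 differed by 2.01 ± 0.13 and 1.43 ± 0.16, and Hoxd4 by 3.07 ± 0.26 and 2.57 ± 0.36. Hoxb2, which was not among the genes tested there, was at 6.09 ± 4.08 CPM in cecal stem-gated and 0.236 ± 0.312 CPM in cecal absorptive-gated cells, on 133 and 9 counts. Hoxb6, at 430 ± 47 CPM in cecal stem-gated and 174 ± 50.9 CPM in cecal absorptive-gated cells, differed by 1.32 ± 0.08, and in colon by 0.82 ± 0.12.

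The 2 exceptions among the genes tested were paralog 13 genes in colon. Hoxb13 was at 22.1 ± 5.57 CPM in stem-gated, 29.1 ± 6.34 in cycling-gated, 51.9 ± 14.2 in goblet-gated and 54.6 ± 22.4 in absorptive-gated cells (SD, n = 8 each). It was lower in stem-gated than in absorptive-gated cells by -1.26 ± 0.19 (edgeR adjusted p = 3.99e-07) and higher in goblet-gated than in stem-gated cells by 1.25 ± 0.16 (edgeR adjusted p = 3.95e-08), the only one of 12 Hox calls in that contrast to be higher in goblet-gated cells (background 21.9% higher, 39.3% lower). Hoxa13 was at 9.23 ± 1.3 CPM in stem-gated and 19.4 ± 8.37 CPM in absorptive-gated cells, a difference of -1.04 ± 0.24 (edgeR adjusted p = 0.000277). Hoxd13, their paralog, was at 14.5 ± 5.43 and 9.23 ± 8.92 CPM and did not pass (0.72 ± 0.42, edgeR adjusted p = 0.117). Hoxb6 (-1.37 ± 0.12), Hoxb8 (-1.34 ± 0.16) and Hoxb5 (-1.18 ± 0.16) were the furthest below stem-gated cells among the 11 that were lower in goblet-gated cells. In cecum goblet-gated cells were also lower for 11 genes, led by Hoxb8 (-0.96) and Hoxb7 (-0.92), and higher for Hoxb9 (0.25 ± 0.09, edgeR adjusted p = 0.0111; background 37.9% lower, 22.8% higher). Hoxa13 was not among the genes tested between classes in cecum. It was at 1.54 ± 1.41 CPM in cecal stem-gated and 2.75 ± 1.84 CPM in cecal absorptive-gated cells, on 27 and 78 counts.

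Tuft-gated cells, a rare chemosensory class, were compared in colon, where 5 samples held at least 20 of them. Against stem-gated cells 3 Hox genes were higher and 7 lower (background 11.7% and 20.7%), and under TMM scaling 3 and 4 (no background given). Hoxa3 was at 264 ± 70.1 CPM in tuft-gated (SD, n = 5) and 167 ± 12.5 CPM in stem-gated cells (n = 8), a difference of 0.71 ± 0.17 (edgeR adjusted p = 0.00117). Hoxa5 (1.09 ± 0.28) and Hoxa10 (0.93 ± 0.23) were also higher. Hoxb9, at 42.5 ± 22.1 against 86.2 ± 11.6 CPM, was lower by -0.88 ± 0.19 (edgeR adjusted p = 0.000434), and Hoxb7 by -1.77 ± 0.52. These are shares of a class's transcripts: tuft-gated cells held a median of 5322 transcripts per cell and stem-gated cells 15062. Hoxa7 (-1.17), Hoxd3 (-0.96), Hoxb8 (-0.87), Hoxb6 (-0.45) and Hoxd11 (0 counts) each lost the call when 1 of at least 2 samples was left out. Those samples were colonic Abx_14D 1 (-0.84) and GF 1 (-1.11) for Hoxa7, GF 1 (-0.87) and GF 3 (-0.75) for Hoxd3, GF 3 and GF 4 for Hoxb8 (-0.62, -0.76) and Hoxb6 (-0.37, -0.41), and all but GF 3 for Hoxd11.

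**Figure D3:**
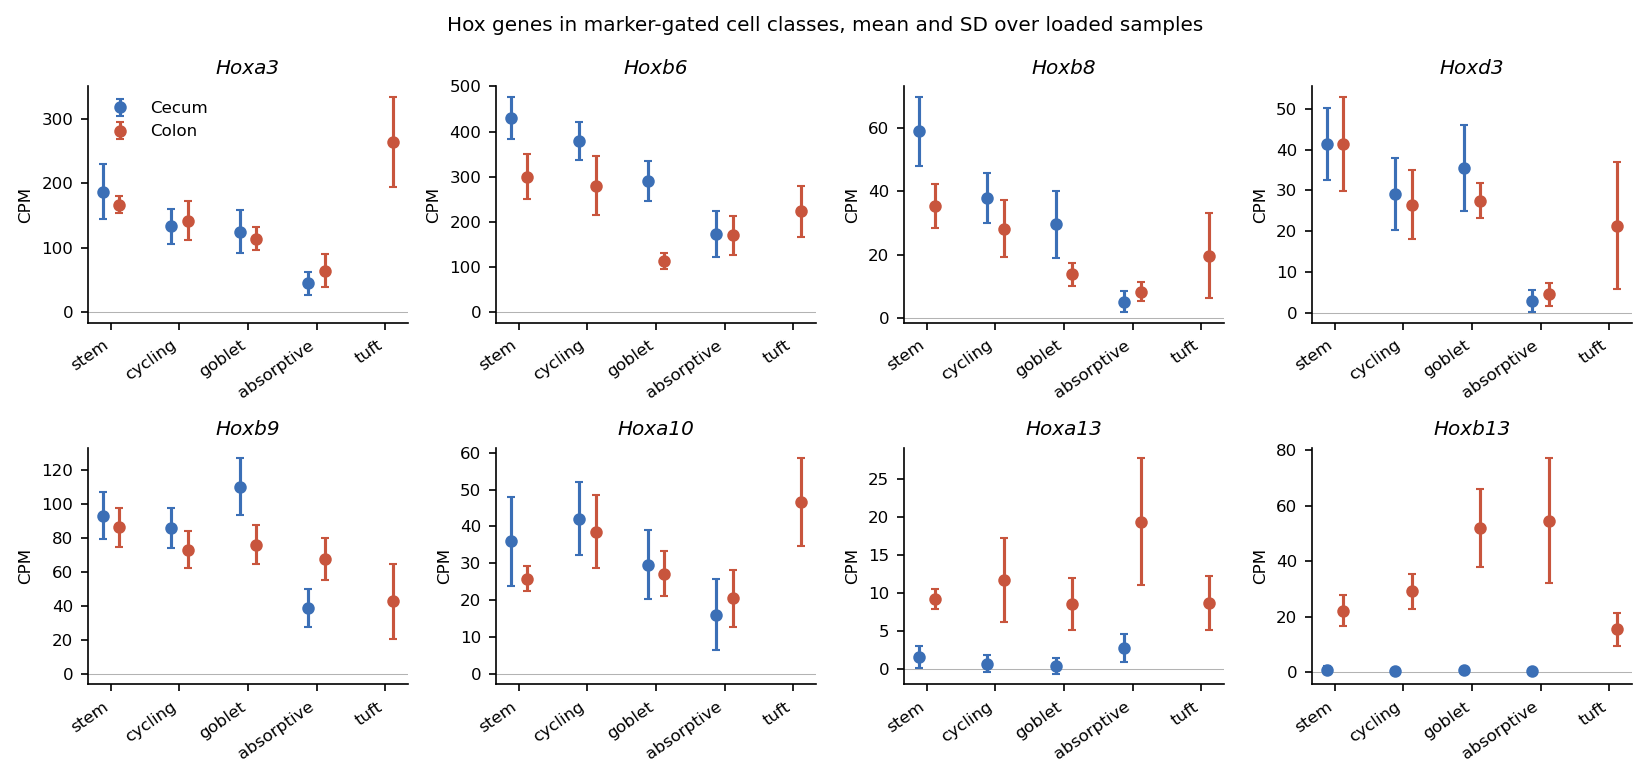
Mean and SD of the level in CPM (y axis) over loaded samples with at least 20 cells of the class, for 8 Hox genes in stem, cycling, goblet, absorptive and, in colon, tuft-gated cells (x axis), cecum in blue and colon in red. Hoxd3 and Hoxb8 fall toward absorptive-gated cells in both tissues, and Hoxb13 in colon rises from 22.1 CPM in stem-gated to 54.6 CPM in absorptive-gated cells.

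The colonic tissue was taken whole, so its cells may come from any point along its length, and position was not recorded. Stem-gated colonic cells were therefore divided, after the data had been seen, into cells with and without a Hoxb13 transcript. Each cell was thinned to 5000 transcripts for the division, which left 2935 of 3223 cells (288 were shallower). Of these 226 had a Hoxb13 transcript (7.7%, exact 95% interval 6.76 to 8.72%, and 17.6% unthinned), against 1 of 1356 cecal stem-gated cells (0.0737%, 0.00187 to 0.41%). All transcripts of the divided cells were then summed by loaded sample and tested with the sample as a block, and median transcripts per cell were 17328 with and 15845 without. Hoxb13 itself was at 126 ± 19.5 CPM with and 11.1 ± 3.36 CPM without, a contrast that the division set. The level without is above 0 because cells were divided on thinned counts and summed on all counts. Cells without Hoxb13 are thus those with no such transcript among 5000, and some of them held it unthinned.

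Cells with a Hoxb13 transcript held few transcripts of the 3′ and middle Hoxb genes and of Hoxd3 and Hoxd4, and more of Hoxa13 and Hoxd13. Of 17 other Hox genes tested, 12 passed, 8 lower and 4 higher with Hoxb13, against a background of 15.4% of 9356 genes (7.63% lower, 7.74% higher). The Hox median was -0.20, against 0.01 over all genes. Hoxd4, Hoxb7, Hoxb4 and Hoxd3, at 0.247, 1.13, 1.61 and 1.61 CPM with Hoxb13, passed the low-count filter only through the cells without it. So did Hoxb5, Hoxb8 and Hoxb3, at 2.66, 3.17 and 8 CPM with Hoxb13, whose lowest samples with Hoxb13 were at 0. Hoxd10 and Hoxd11, higher with Hoxb13 in 8 of 8 samples, did not pass that filter. The counts and the median thus describe the 17 genes tested and depend on the filter. Hoxb6 was at 26.6 ± 19.4 CPM with Hoxb13 (SD, n = 8, range 3.98 to 60.5) and 323 ± 54.2 CPM without (269 to 411). It was lower in 8 of 8 samples, and the groups did not overlap (-3.35 ± 0.22, edgeR adjusted p = 1.88e-09). At matched depth 19 of 226 cells with Hoxb13 had a Hoxb6 transcript (8.41%), against 1666 of 2709 without (61.5%). Per sample these shares ran from 4.55 to 12.7% and from 52.3 to 71.9%.

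Hoxd3 was at 1.61 ± 1.92 CPM with Hoxb13 (0 to 4.96) and 45.1 ± 12.5 CPM without (28.5 to 63.3), a difference of -4.44 ± 0.35 (edgeR adjusted p = 1.76e-08). Hoxd4, its neighbour, had 2 counts with and 908 without, a ratio without over with of 42.9 (exact 95% interval 11.8 to 355; edgeR adjusted p = 4.33e-08). Hoxb3 was at 8 ± 8.6 against 58.9 ± 10.2 CPM (-2.71 ± 0.30) and Hoxb8 at 3.17 ± 4.32 against 37.5 ± 7 CPM (-3.28 ± 0.34). Hoxb7 (-3.82 ± 0.43), Hoxb4 (-3.16 ± 0.41) and Hoxb5 (-2.81 ± 0.37) were lower as well. Hoxb9, the Hoxb gene next above Hoxb8 in paralog order, did not pass: it was at 75.1 ± 20.1 CPM with (53.2 to 113) and 87 ± 10.7 CPM without (73.5 to 107), a difference of -0.20 ± 0.11 (edgeR adjusted p = 0.27). Within Hoxb, then, all 6 genes tested from Hoxb3 to Hoxb8 were lower and Hoxb9 did not pass. The limit from the low-count filter given above holds for these lower calls.

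The Hoxa genes did not show that fall. Hoxa3 differed by 0.02 ± 0.12 (edgeR adjusted p = 0.964; 179 ± 53 and 166 ± 15.9 CPM), and Hoxa7 (0.28 ± 0.15), Hoxa6 (0.29 ± 0.23) and Hoxa5 (0.53 ± 0.23) did not pass. Hoxa13 was higher with Hoxb13, at 22.9 ± 5.27 CPM (15.2 to 30.9) against 7.67 ± 1.15 CPM (6.18 to 10.2), by 1.55 ± 0.21 (edgeR adjusted p = 1.33e-05). Hoxa9 (0.78 ± 0.18, edgeR adjusted p = 0.00451) and Hoxa10 (0.55 ± 0.17, edgeR adjusted p = 0.0355) also passed. Cells divided at 3000 transcripts gave 0.27 for Hoxa9 and 0.61 for Hoxa10, neither of which passed. Leaving out 1 sample ended the Hoxa10 call in 6 of 8 refits, all but those without Abx_14D sample 2 or GF sample 1, with differences of 0.45 to 0.60. Hoxd13 was at 49.9 ± 15.4 CPM with (32.6 to 71.6) and 10.8 ± 4.29 CPM without (5.11 to 17.4), higher in 8 of 8 samples (2.36 ± 0.22, edgeR adjusted p = 1.83e-07). Hoxd11, which did not pass the low-count filter, was at 25.3 ± 12.2 against 5.48 ± 1.99 CPM and higher in 8 of 8 samples.

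**Figure D4:**
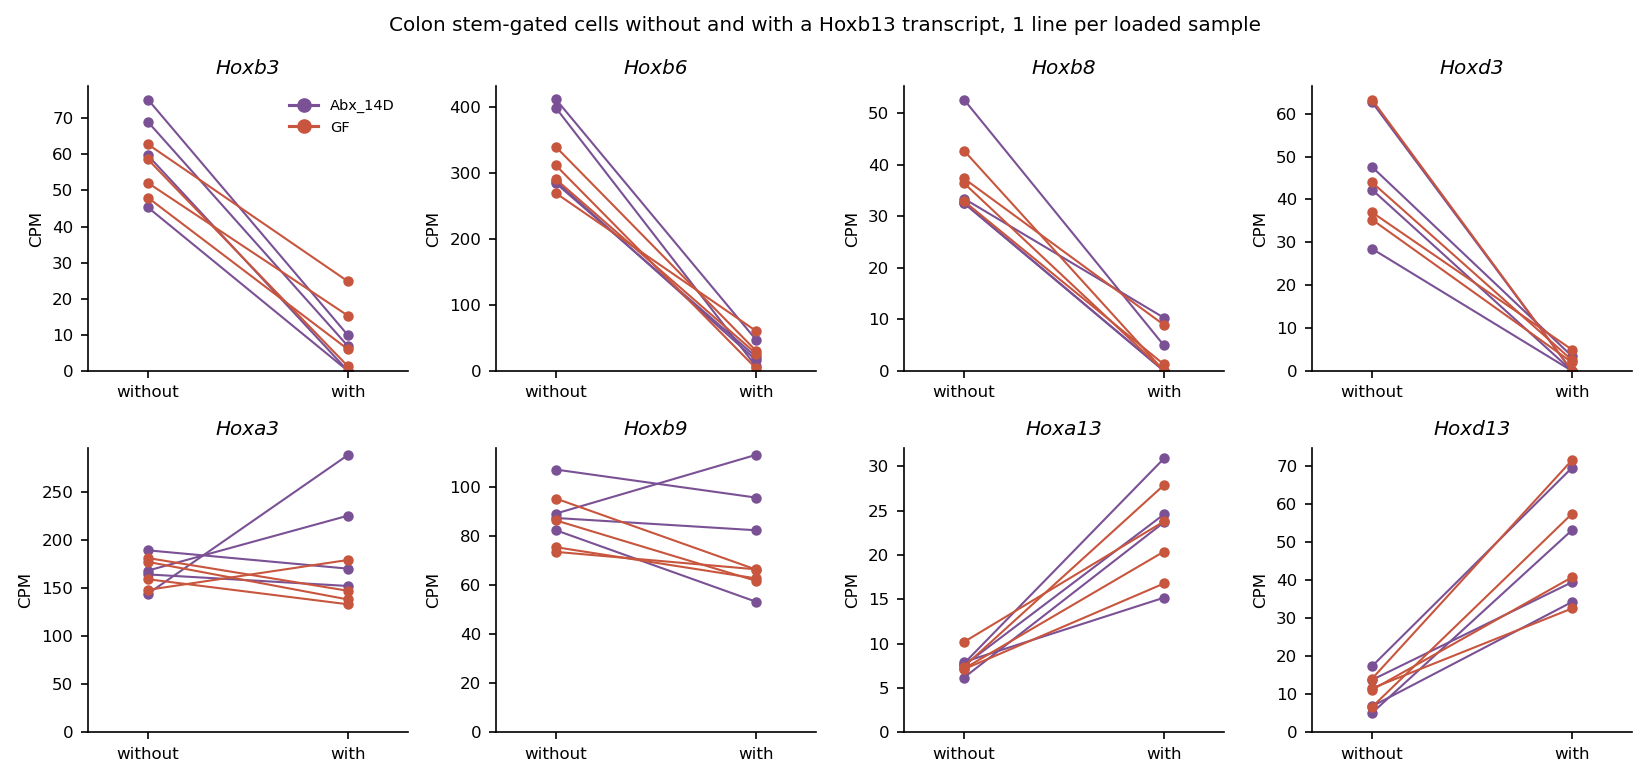
Level in CPM (y axis) of 8 Hox genes in colonic stem-gated cells without and with a Hoxb13 transcript (x axis), 1 line for each of the 8 colonic samples. Hoxb3, Hoxb6, Hoxb8 and Hoxd3 fall with Hoxb13, Hoxa13 and Hoxd13 rise, and Hoxa3 and Hoxb9 did not pass the test, with Hoxb9 lower in 7 of 8 samples.

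The same division in other classes rested on fewer cells, and the same low-count filter applied. In goblet-gated cells 133 of 698 had a Hoxb13 transcript (19.1%), and 4 of 9 other Hox genes passed (background 5.62%): Hoxb6 (-3.09 ± 0.25), Hoxb3 (-3.60 ± 0.42) and Hoxd3 (-4.83 ± 0.46) were lower and Hoxd13 (1.53 ± 0.32) higher. In cycling-gated cells 50 of 515 had one (9.71%), and 3 of 7 passed (background 5.11%): Hoxb6 (-2.39 ± 0.31) and Hoxb3 (-2.83 ± 0.55) lower and Hoxa10 (1.24 ± 0.26) higher. Among other genes in stem-gated cells, Hottip (1.48 ± 0.23, edgeR adjusted p = 8.69e-05) and Hoxa11os (1.08 ± 0.09, edgeR adjusted p = 5.02e-08) were higher with Hoxb13. Hoxb5os, antisense in the middle of Hoxb, was lower (-2.48 ± 0.23), as was Cdx2 (-1.27 ± 0.12, edgeR adjusted p = 1.29e-07), while Cdx1 was higher (0.40 ± 0.10, edgeR adjusted p = 0.0101).

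In cecum the conditions were compared to ask whether antibiotics or a germ-free state changed Hox levels. Few did: 2 of 20 Hox genes tested passed in GF against Ctrl (background 5.17%, and 3.57% for lower alone), both lower, and 0 of 20 passed in Abx_14D against Ctrl (background 2.14%), Abx_4D against Ctrl (background 0.493%) or GF against Abx_14D (background 0.643%). At an unadjusted p under 0.05 the counts were 5, 3, 0 and 2, and DESeq2 made the same numbers of calls as edgeR. The share of all genes at that unadjusted limit is not given here or below, so such counts have no background. Hox medians were -0.15 in GF against Ctrl and -0.28 in Abx_14D against Ctrl, against -0.02 and 0.01 over all genes. The 3 comparisons with Ctrl share the same 4 control samples.

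Hoxa11 was at 5.05, 2.61, 1.02 and 1.87 CPM in Ctrl, 2.57, 2.2, 0.899 and 1.66 CPM in Abx_4D, 1.57, 1.49, 1.49 and 2.03 CPM in Abx_14D and 0.149, 0.397, 0.706 and 0.574 CPM in GF. The GF samples lay below all samples of the other groups. The difference from Ctrl was -2.30 ± 0.51 (edgeR adjusted p = 0.0125) on 18 counts in GF and 45 in Ctrl. Hoxa10, its neighbour, was at 46.2, 46.3, 33.8 and 34.7 CPM in Ctrl and 24.6, 27, 25.6 and 25 CPM in GF, without overlap (-0.65 ± 0.18, edgeR adjusted p = 0.049). Abx_4D (34.8, 26.3, 24.1 and 42.6 CPM) overlapped both in Hoxa10. Abx_14D (33.7, 23.2, 26.1 and 31.3 CPM) overlapped GF but also lay below all Ctrl samples, by a narrow gap (33.7 against 33.8 CPM), and did not pass the test. The Hoxa11 call was kept in all 16 refits that left out 1 sample (edgeR adjusted p 0.00567 to 0.0437), and that of Hoxa10 was lost in 10 of 16 (-0.57 to -0.72): without Ctrl sample 1, 2 or 4, Abx_14D sample 3 or 4, Abx_4D sample 1 or any GF sample. Without the 4 cecal samples over 0.5% median mitochondrial share (Abx_4D 2, Abx_14D 3 and 4, GF 4) neither passed (Hoxa11 -2.39, edgeR adjusted p = 0.0604; Hoxa10 -0.64, edgeR adjusted p = 0.133).

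Among cofactors, 2 of 6 TALE genes passed in GF against Ctrl, both lower, beside 5.17% of all genes (3.57% lower). Pbx3 was at 124, 121, 65.6 and 109 CPM in Ctrl and 63.1, 46, 71.3 and 60.2 CPM in GF (-0.79 ± 0.21, edgeR adjusted p = 0.0327), with 1 Ctrl sample inside the GF range. Meis3 was at 5.05, 6.74, 7.69 and 5.87 CPM in Ctrl and 3.73, 3.7, 3.46 and 1.29 CPM in GF (-1.06 ± 0.30, edgeR adjusted p = 0.049), without overlap. Of the other lists 1 of 18 Polycomb genes (Cbx7, 0.80 ± 0.20) and 1 of 8 flanking genes (Ttll6, 1.06 ± 0.27) passed, beside the same 5.17% of all genes. None of these 4 passed without the samples over 0.5% mitochondrial share. With 1 sample left out, Meis3 lost the call in 15 of 16 refits, all but that without Abx_4D sample 1 (-0.82 to -1.16). Pbx3 lost it without Ctrl sample 1, 2 or 4 or GF sample 1, 2 or 4 (-0.69 to -0.82), Cbx7 without Ctrl sample 3 or 4 or GF sample 1, 3 or 4 (0.71 to 0.81), and Ttll6 without Ctrl sample 2, 3 or 4 or GF sample 1 or 2 (0.90 to 1.03).

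The cecal conditions were then compared within gated cells. Any difference among the 4 groups was found for 1 of 13 Hox genes in absorptive-gated cells (Hoxb6, edgeR adjusted p = 0.0207; background 10.4%), and for 0 of 16 in stem-gated (background 2.84%), 0 of 15 in goblet-gated (background 1.39%) and 0 of 15 in cycling-gated cells (background 1.62%). At an unadjusted p under 0.05 the last 3 counts were 2, 0 and 2, and DESeq2 called 1 in stem-gated cells. In stem-gated GF against Ctrl 0 of 16 Hox genes passed (background 4.4%, lowest edgeR adjusted p = 0.104). Unadjusted p was under 0.05 for 8 of 16, with no share of all genes to set beside it, and 3 of 16 were above 0. The Hox median there was -0.32, against -0.01 over all genes, with Hoxb2 at -1.49 ± 0.52, Hoxa10 at -0.77 ± 0.26 and Hoxd4 at 0.67 ± 0.26. Absorptive-gated Hoxb6 was at 273, 229 and 234 CPM in Ctrl samples 2 to 4, 161, 127 and 119 CPM in Abx_4D samples 1, 3 and 4, 142, 172, 89.8 and 154 CPM in Abx_14D, and 144, 204, 213 and 172 CPM in GF. Samples with fewer than 20 such cells were left out of the fit. All Ctrl samples lay above all samples of the other groups. Hoxb6 was lower in Abx_14D (-0.82 ± 0.21, edgeR adjusted p = 0.0157), 1 of 2 Hox calls of 13, both lower (background 6.87%, 3.36% lower), and in Abx_4D (-0.87 ± 0.23, edgeR adjusted p = 0.035), the only call of 13 (background 3.32%, 1.85% lower). Hoxa9 was the other Abx_14D call (-1.18 ± 0.32, edgeR adjusted p = 0.0268), at 52, 30.6 and 31.9 CPM in Ctrl and 13.1, 9.23, 15.4 and 22.1 CPM in Abx_14D. In GF against Ctrl 0 of 13 passed (background 11.5%).

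These absorptive-gated calls rested on few samples. The Abx_14D call of Hoxb6 was lost without Abx_14D sample 3 (-0.64) or Ctrl sample 2 (-0.74) or 4 (-0.85). Its Abx_4D call was lost without Abx_4D sample 3 (-0.83) or 4 (-0.79) or any of the 3 Ctrl samples (-0.80 to -0.92). That of Hoxa9 was lost without Abx_14D sample 1 (-1.13), 2 (-1.03) or 3 (-1.17) or any Ctrl sample (-0.99 to -1.32), and with a stricter gate it was -0.63 (edgeR adjusted p = 0.609).

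**Figure D5:**
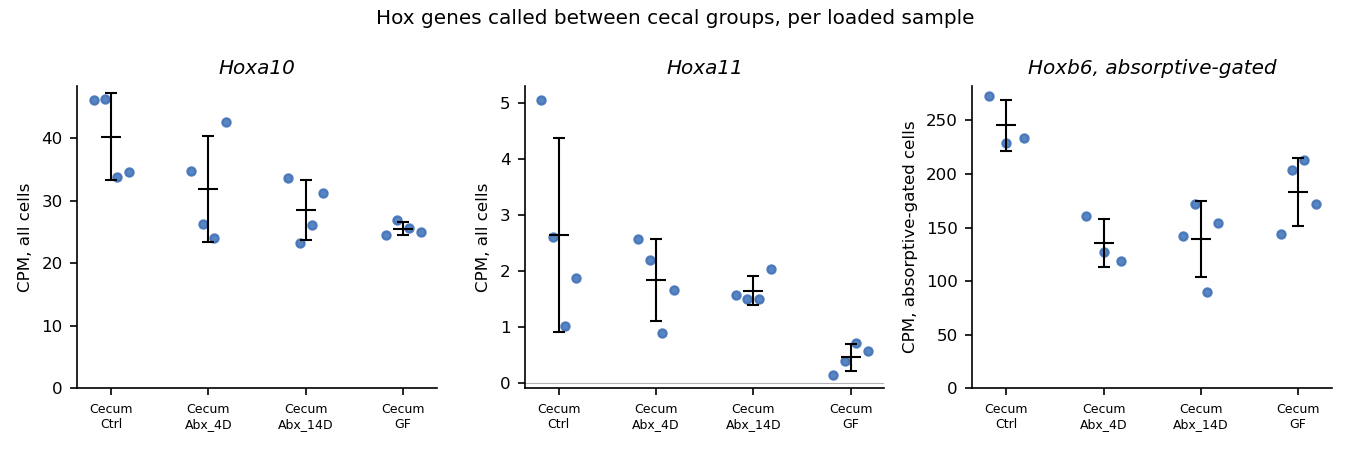
Level in CPM (y axis) of Hoxa10 and Hoxa11 in all cecal cells and of Hoxb6 in absorptive-gated cecal cells, by cecal group (x axis), 1 point per loaded sample with the mean and SD. Hoxa11 is lowest in GF, at 0.149 to 0.706 CPM, and Hoxb6 is highest in Ctrl, at 229 to 273 CPM.

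In colon, GF was compared with Abx_14D, the 2 colonic groups with enough cells. No Hox gene passed (0 of 24, background 1.09%), 3 had an unadjusted p under 0.05 (no background given), and DESeq2 called 0. Hoxb13 averaged 45.4 ± 11 CPM in Abx_14D and 35.3 ± 5.71 CPM in GF (SD, n = 4), and its samples overlapped. Hoxd13 averaged 15.6 ± 4.22 and 18.2 ± 4.29 CPM and Hoxa13 13.7 ± 2.44 and 12.4 ± 2.42 CPM, also with overlap.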

How the data were processed

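The deposited matrix holds raw counts of transcripts per gene and cell, which the authors made by single-cell RNA sequencing with the Parse Evercode WT kit, per the labels. The submitters' processing notes name build mm39 and Seurat; the aligner, the annotation, the counting rule and its strand setting were, for these counts, not given in the sources used here. Of 24609 barcodes, 15916 with at least 500 transcripts were kept (median 13472). No barcode was held by 2 loaded samples, and no doublet caller was run; cells that passed more than 1 secretory gate were left ungated.

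Counts were summed per loaded sample, or per sample and gated class with at least 20 cells, and tested with edgeR 4.0.16 in R 4.3.3 (glmQLFit and glmQLFTest, library-size scaling, filterByExpr, Benjamini-Hochberg over all genes tested, threshold 0.05). One fit covered the 16 cecal samples and another the 16 samples of Abx_14D and GF in both tissues; class and Hoxb13 comparisons had the sample as a block. A cell's marker score was the mean over a list of log2(1 + transcripts per 10000). Classes were set by lower limits on these scores. In 2 comparisons, Abx_14D against Ctrl in cecum and colon against cecum in Abx_14D, every same-numbered pair of samples correlated over 0.1 in its deviations from the group means (0.225 to 0.294 and 0.127 to 0.244), so the loaded-sample numbers may pair the samples there, from the data and not from a label. The count step was tested on simulated data with known changes. Alternatives were TMM scaling, DESeq2 1.42.0, no low-count filter, cells with at least 2000 transcripts, a stricter gate, the loaded-sample number as a block, samples left out in turn and samples with over 0.5% median mitochondrial share left out. Exact intervals cover counting error only.

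The members, lists and limits were chosen with earlier results of these data known. Any member could be named, though some genes are not reported here, and of the other lists at most the 3 genes with the lowest p per direction. Promoter sequences are from RefSeq on GRCm38.p6, not the build of the counts, and no coordinates were carried between builds. Colon Ctrl and colon Abx_4D entered no comparison.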

Additional observations from a re-analysis of the deposited data

Results flagged for a closer look

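Among 138 combinations of gene and group with at least 12 counts, 11 (7.97%) had 1 of 4 samples that stood apart, with a gap to the nearest other sample, as a share of the group's range, above Dixon's 95% critical value; chance gives about 1 in 20. Low samples were Hoxa10 in colonic Abx_14D sample 1 (26.7 CPM, the others 29.5 to 30), Hoxa5 in cecal Abx_14D sample 2 (15.6, others 21.8 to 22.4), Hoxb5 in cecal Abx_14D sample 1 (19.1, others 23.3 to 24), and Hoxb6 and Hoxd3 in cecal GF sample 4 (260, others 332 to 345, and 17.6, others 34.5 to 36.7). High samples were Hoxa11 in cecal Abx_14D sample 4 (2.03, others 1.49 to 1.57), Hoxa9 in cecal Abx_4D sample 2 (71.4, others 54.9 to 57.5) and in cecal Ctrl sample 1 (90.9, others 54.2 to 58.2), Hoxb13 in cecal Abx_4D sample 2 (3.29, others 0.3 to 0.791), Hoxb3 in cecal GF sample 1 (81, others 61.7 to 63.7) and Hoxb8 in colonic Abx_14D sample 1 (40.8, others 21.3 to 24.5). Cecal Abx_4D sample 2, with 191 cells and 1821737 transcripts the shallowest sample used, appears in 2 of the 11.

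Colonic Abx_4D sample 1 entered no comparison, and 5′ Hox genes were read there above the limit that a count of 0 allows (3 counts, 0.423 CPM in its 7086989 transcripts). Hoxa13 was at 13.4 CPM, Hoxb13 at 27.2, Hoxd10 at 2.68, Hoxd11 at 8.33 and Hoxd13 at 16.1 CPM. Hoxb13 was below the lowest of the 8 colonic samples compared (29.4 CPM), the other 4 genes lay within their range, and no test was made. Samples 2, 3 and 4 of that group, pooled (169 cells, 1167299 transcripts), went the other way. Hoxb13 was at 107 CPM there, Hoxa13 at 21.4, Hoxd10 at 6, Hoxd11 at 42 and Hoxd13 at 61.7 CPM, all above the 8 colonic samples compared.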

How the results depend on the processing

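Refits of the 16 designed comparisons numbered 328, and of the 275 values of single genes 4919, of which 4611 kept direction and call, 304 lost the call and 4 changed sign. The sign changes were in cycling-gated against absorptive-gated cecal cells: Hoxb5 (0.32) became -0.22 under TMM scaling and -0.12 with DESeq2, and Cdx2 (0.19) became -0.35 and -0.26. TMM scaling also moved the all-gene median of that contrast by -0.54.

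Counts of Hox calls that moved by over 1.5 times were these. GF against Ctrl in cecum (2) gave 1 with no low-count filter and 0 without the samples over 0.5% mitochondrial share. Any cecal group in stem-gated cells (0) gave 1 with DESeq2 and 2 with no filter, and in absorptive-gated cells (1) gave 2 under TMM, 2 with DESeq2, 2 without the high-mitochondrial samples and 4 with no filter. Absorptive-gated colon against cecum (3 in each) gave 7 in Abx_14D and 5 in GF with no filter. The Hoxb13 division (12), whose alternatives were chosen after seeing the data, gave 4 in goblet-gated and 3 in cycling-gated cells, where fewer genes were tested. Otherwise the cause was not tested.

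With samples left out in turn, calls ranged as follows: colon against cecum 7 to 10 in Abx_14D (7 without colonic Abx_14D sample 3) and 8 to 13 in GF (8 without colonic GF sample 3), in stem-gated cells 9 to 12 and 9 to 11, in absorptive-gated cells 3 to 5 and 2 to 5; GF against Ctrl 1 to 2; any cecal group 0 to 1 in stem-gated and 0 to 3 in absorptive-gated cells; between classes 15 to 15 in cecum and 17 to 19 in colon; the Hoxb13 division 11 to 12; and 0 to 0 in the other cecal comparisons, the interaction and colonic GF against Abx_14D.

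Same-numbered samples correlated at a median of 0.17 in cecum (-0.121 to 0.374, different numbers -0.04), 0.05 in colon (0.027 to 0.24, different -0.033) and 0.102 in the fit across tissues (-0.011 to 0.332, different -0.046). In 5 of the 7 comparisons at least 1 pair was at 0.1 or below, and the numbers were not taken to pair samples. In none of the 7 did every sample correlate best with its own number. With the number as a block, colon against cecum gave 10 calls in Abx_14D and 13 in GF, GF against Ctrl 2 and the other 4 comparisons 0, and 43 of 43 gene values kept their call. The stricter gate could not be fitted for absorptive-gated colon against cecum or between classes in colon. Depth limits the Hoxc cluster, Hoxd8, Hoxd9 and Hoxd12, which passed no low-count filter, and the cecal levels of 5′ Hoxd genes, which rest on 0 to 6 counts per group.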
